A study of Saccharomyces cerevisiae with 12 samples.

Results

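Yeast carrying scFv-58F, an intrabody that recognises histone H3 acetylated at lysine K9, was compared with yeast carrying scFv-112A, a control intrabody raised against acetylated HIV-1 integrase. An intrabody is an antibody fragment produced inside the living cell. The 4 arrays titled for scFv-58F (58F) were set against the 4 titled for scFv-112A (112A), which is 8 of the 12 arrays in the series, and every gene probe entered. The other 4 arrays, of wild type yeast without an intrabody, helped to estimate the spread and are given as levels for orientation. All cells belonged to the Saccharomyces cerevisiae strain L40. Both intrabody strains were stable transfectants maintained on medium lacking leucine (SD-Leu), whereas wild type was kept on rich YPD medium, and a final overnight culture in YPD was common to the 3 groups. Cultures were started from a single colony. The promoter driving the intrabodies and the number of clones per intrabody are not given in the sources used here, and the amount of each intrabody was not analysed here. Polyadenylated RNA was labelled with Cy3 and hybridised to single-colour Agilent arrays. Nothing in the labels says that the 4 replicates of a group were separate cultures, so each p-value measures only the spread between these samples, which may be technical.

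Acetylation of H3 at K9 is placed mainly by Gcn5, the catalytic subunit of the SAGA and ADA complexes, and removed by deacetylases such as Rpd3 and Hda1. It marks the promoters of active genes and is bound by bromodomain proteins, among them subunits of the chromatin remodellers SWI/SNF and RSC. An intrabody directed at the acetylated tail is a tool to bind the mark inside the cell.

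Array quality was similar in the groups compared. Before scaling, the 75th percentile of an array's signal was 4739 to 5782 in 58F and 4984 to 5254 in 112A, 87.0% to 94.7% of gene spots were well above background on an array, and no spot was saturated. Among the wild type arrays, which helped to estimate the spread, replicate 1 stood apart at 9362, against 5592 to 6047 on the others. Without that array 2260 genes were called between 58F and 112A, against 1877 with it. Arrays of one group correlated at 0.996 to 0.999 in 58F and at 0.992 to 0.997 in 112A over all genes tested. The spread between replicates was wider in 112A, where the SD exceeded that of 58F for 68.8% of genes and its median was 0.096 against 0.070 on the log2 scale. Of 10 spike-in probes, RNAs added to the labelling reaction, 7 lay above the dimmest range. All 7 were higher in 58F, by 0.02 to 0.14 with a median of 0.08. The arrays were not scaled to them, and the bearing of this offset on the balance of rises and falls was not tested. Each group occupied a slide and a scan of its own, so slide and group cannot be told apart in any result that follows. LEU2, the selection marker of the intrabody strains, was at 6.05, 6.21, 6.23 and 6.09 on the 58F arrays, at 5.89, 5.99, 5.65 and 6.00 on the 112A arrays and at 1.53 ± 0.07 (SD, n = 4) in wild type, which matched the labels. The values of both intrabody groups lay far above wild type and did not overlap each other, and their difference of 0.26 ± 0.08 (adjusted p = 0.0219) lost the call under quantile scaling (0.14) and without replicate 2 or 3 of 58F (0.24 and 0.23). All levels are log2 signals relative to the array's own 75th percentile, so levels of different genes are not compared.

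Of 5827 genes tested, 1877 (32.2%) were called at an adjusted p under 0.05, 799 of them (13.7%) higher and 1078 (18.5%) lower in 58F. Most calls were small: the median size of a called difference was 0.29 on the log2 scale, and the median of all genes was -0.02. At least 2-fold differences were found for 32 genes (0.549%), with 4 (0.0686%) higher and 28 (0.481%) lower. Among calls of 0.5 or more, 62 were higher and 259 lower. Higher calls made up 42.6% of all calls after percentile scaling but 53.0% after quantile scaling and 35.5% after normexp background correction, so the balance of small rises and falls is not settled. For 2018 genes (34.6%) the 4 arrays of one group did not overlap those of the other.

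Calls downwards outnumbered calls upwards among dim genes. When genes were split by signal into 4 classes of equal size, the dimmest class had 97 higher and 317 lower, whereas the 2 middle classes had 246 higher against 211 lower and 246 against 232. The brightest class again leaned to calls downwards, with 210 higher and 318 lower. The median difference of the dimmest class was -0.10, and its median SE of 0.104 exceeded the 0.059 to 0.065 of the others. In the plot of level against difference the falls past 2-fold are spread from dim to bright genes.

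**Figure D1:**
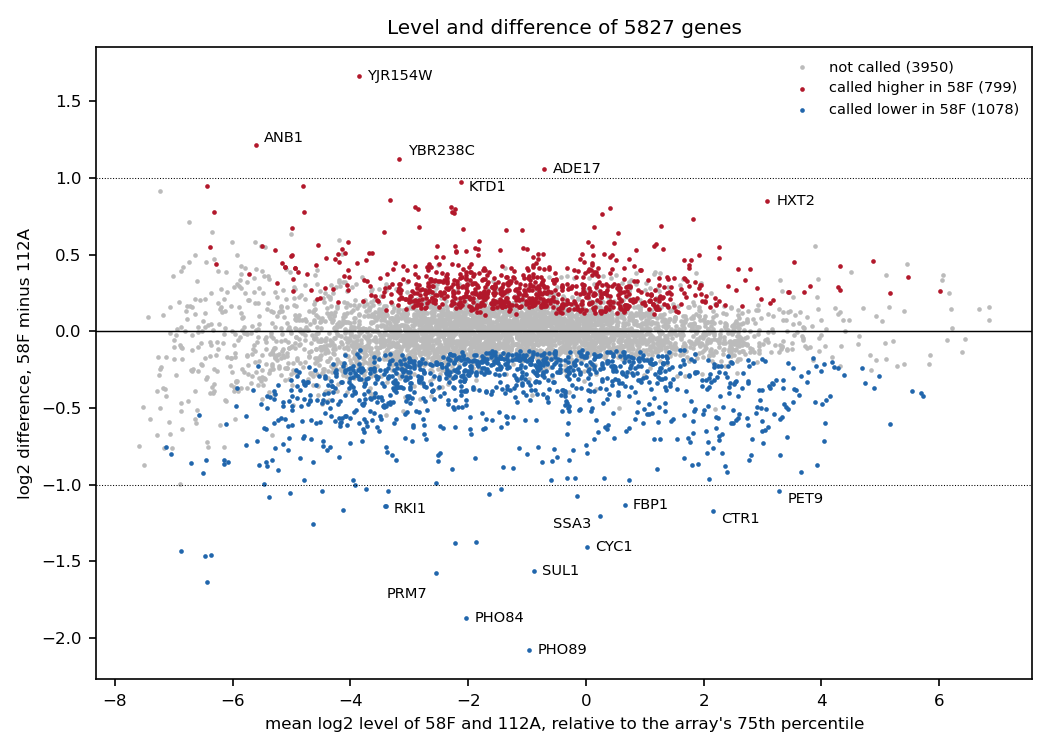
Difference between 58F and 112A (vertical, log2) against the mean level of both groups (horizontal, log2 relative to the array's 75th percentile) for 5827 genes. Red points are the 799 genes called higher in 58F, blue points the 1078 called lower, and dotted lines mark a 2-fold difference, which 28 called genes pass downwards and 4 upwards.

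The leading fall was in PHO89 (YBR296C), the sodium-coupled high-affinity phosphate transporter of the plasma membrane. Its level was -2.05, -2.23, -1.68 and -2.07 on the 58F arrays, 0.14, 0.12, 0.43 and -0.40 on the 112A arrays and 0.33 ± 0.38 (SD, n = 4) in wild type. The highest 58F array lay below the lowest 112A array, and 112A overlapped wild type. The difference was -2.08 ± 0.20 (SE), a 4.23-fold reduction (adjusted p = 9.49e-05). PHO84 (YML123C), the proton-coupled high-affinity phosphate transporter, read -3.09, -3.27, -2.67 and -2.88 in 58F and -0.86, -0.48, -1.11 and -1.99 in 112A. Replicate 4 of 112A was well below its 3 companions, but the groups did not overlap, and the difference was -1.87 ± 0.34 (adjusted p = 0.00215).

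SUL1 (YBR294W), a high-affinity sulfate permease, stood at -1.74, -2.01, -1.53 and -1.41 in 58F and at 0.09, -0.23, 0.26 and -0.55 in 112A, with wild type at 0.53 ± 0.33 (SD, n = 4). Every 58F array was lower than every 112A array, and the difference was -1.56 ± 0.20 (adjusted p = 0.000269). CYC1 (YJR048W), the aerobic cytochrome c, measured -0.75, -0.85, -0.43 and -0.75 in 58F against 1.18, 0.12, 0.97 and 0.60 in 112A. Replicate 2 of 112A was the lowest of its group and replicate 3 of 58F the highest of its own, without overlap. The difference of -1.41 ± 0.19 (adjusted p = 0.000413) was a 2.66-fold reduction.

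SSA3 (YBL075C), a stress-induced cytosolic Hsp70, was at -0.39, -0.47, -0.35 and -0.23 in 58F and at 0.97, 0.46, 1.27 and 0.67 in 112A. The 58F arrays lay close together beneath a wider 112A group, and wild type was above both at 1.81 ± 0.20 (SD, n = 4). The difference was -1.20 ± 0.15 (adjusted p = 0.000255). CTR1 (YPR124W), the high-affinity copper transporter, gave 1.74, 1.46, 1.05 and 2.02 in 58F and 2.92, 2.40, 2.94 and 2.71 in 112A. Here 58F had the wider spread, still wholly below 112A (-1.18 ± 0.18, adjusted p = 0.000834).

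RKI1 (YOR095C), the ribose-5-phosphate isomerase of the pentose phosphate pathway, was at -3.88, -4.10, -4.04 and -3.84 in 58F and at -2.85, -2.93, -2.62 and -2.89 in 112A. Both groups were tight and separated by more than their ranges, and wild type lay higher still at -1.89 ± 0.21 (SD, n = 4). The difference of -1.14 ± 0.10 had an adjusted p of 9.15e-05. The remaining genes among the 12 deepest falls with signal on all 8 arrays were PRM7 (-1.57 ± 0.27), a pheromone-regulated gene, YDL218W (-1.38 ± 0.28), FRE7 (-1.38 ± 0.25), a putative reductase of the copper regulon, HXT14 (-1.26 ± 0.19), of the hexose transporter family, and LDS1 (-1.17 ± 0.20), which takes part in spore wall formation. In each of them the 4 arrays of 58F lay below the 4 of 112A. Absence of overlap was a condition for choosing the 12 leading falls and the 12 leading rises, so it is no separate result.

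Rises were fewer and smaller. YBR238C, a mitochondrial protein related to Rmd9, measured -2.62, -2.60, -2.62 and -2.62 in 58F and -3.82, -3.10, -4.02 and -4.01 in 112A. The 58F arrays were nearly identical and all above 112A, whose replicate 2 came closest, and wild type was lowest at -4.46 ± 0.36 (SD, n = 4). Its difference was 1.12 ± 0.20, a 2.18-fold increase (adjusted p = 0.00199). ADE17 (YMR120C), which carries out the last steps towards inosine monophosphate, was at -0.16, -0.04, -0.13 and -0.41 in 58F and at -1.48, -0.97, -1.22 and -1.32 in 112A. Wild type resembled 112A, at -1.18 ± 0.18 (SD, n = 4), and 58F alone was high (1.06 ± 0.12, adjusted p = 0.000149). The other 2 genes past 2-fold upwards were YJR154W (1.67 ± 0.22) and ANB1 (1.21 ± 0.22), named after their values were seen. YJR154W was above background on 3 of the 4 112A arrays and ANB1 on 2 of them, and under normexp background correction the difference of ANB1 was 0.46.

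HXT2 (YMR011W), a high-affinity glucose transporter, was at 3.43, 3.46, 3.35 and 3.79 in 58F and at 2.19, 2.97, 2.85 and 2.64 in 112A. Each 58F array exceeded each 112A array, and wild type was lowest at 1.86 ± 0.11 (SD, n = 4), giving a rise of 0.85 ± 0.15 (adjusted p = 0.0017). STD1 (YOR047C), a regulator of hexose transporter genes in the glucose-sensing pathway, read -1.91, -1.84, -1.85 and -1.96 in 58F and -2.67, -2.45, -2.98 and -2.58 in 112A. Again 58F was tight and above 112A, which was above wild type at -3.28 ± 0.07 (SD, n = 4). The rise was 0.78 ± 0.09 (adjusted p = 0.000209). The rest of the 12 leading rises were KTD1 (0.97 ± 0.21), a member of the DUP240 membrane protein family, NRS1 (0.85 ± 0.10), a regulator of cell cycle entry, EMA17 (0.81 ± 0.11), ADE13 (0.80 ± 0.11), adenylosuccinate lyase, RCK1 (0.80 ± 0.15), a stress-related kinase, URH1 (0.80 ± 0.12), uridine nucleosidase, SLZ1 (0.77 ± 0.16), which acts in meiosis, and HXT4 (0.77 ± 0.16), a hexose transporter.

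**Figure D2:**
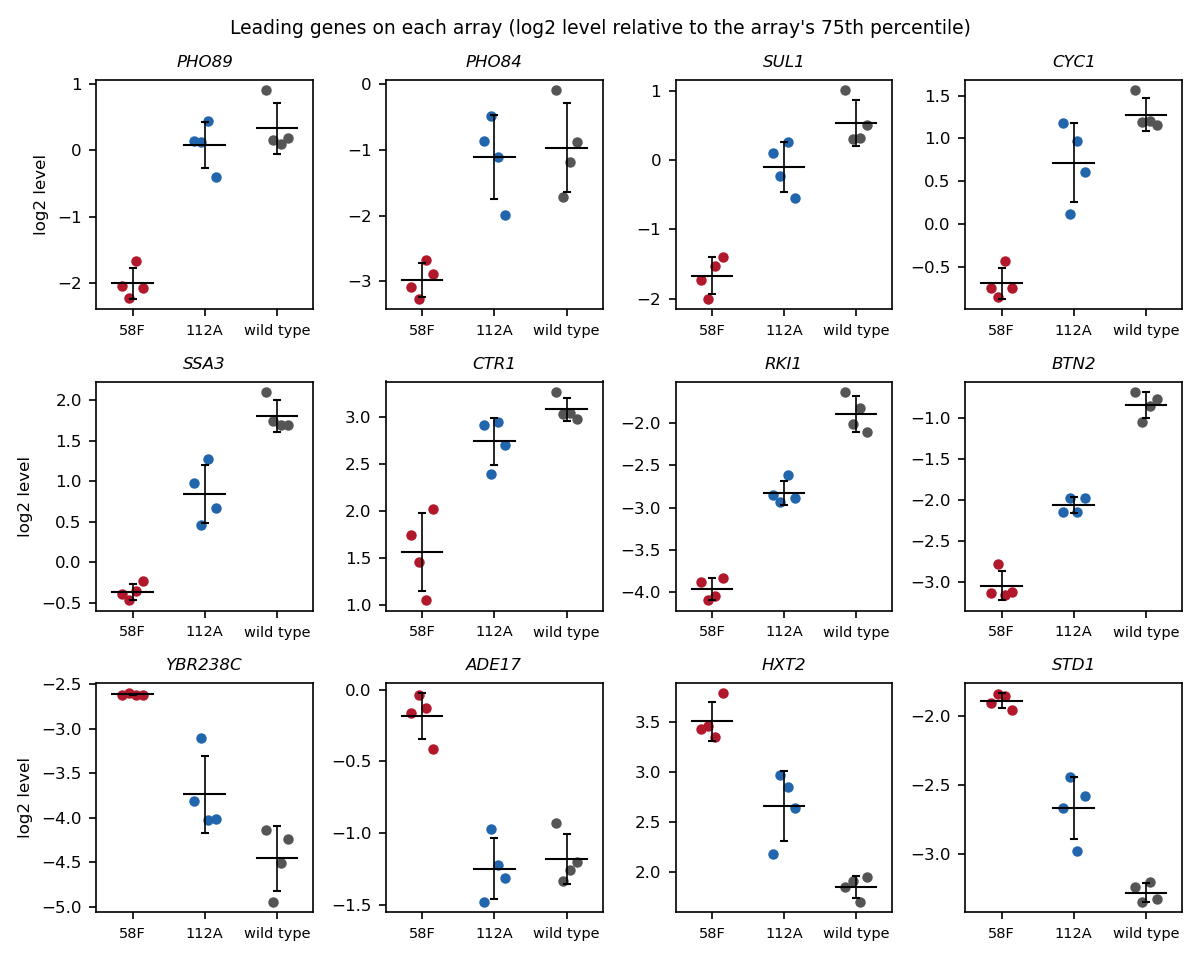
Log2 level relative to the array's 75th percentile on each of the 4 arrays of 58F (red), 112A (blue) and wild type (grey) for 12 genes; bars are the mean and SD, and the vertical scale differs between panels. In all 12 genes the 4 arrays of 58F lie apart from the 4 of 112A, below them in the first 8 panels and above them in the last 4. Apart from BTN2 they were picked from genes whose groups do not overlap, so the choice set that separation. Over all genes tested, 34.6% do not overlap.

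Most structural genes of the respiratory chain fell. All 9 tested subunits of complex III, which passes electrons from ubiquinol to cytochrome c, were lower in 58F (median -0.58). The same held for 9 of 11 genes of cytochrome c and complex IV, the terminal oxidase (median -0.71), for 15 of 16 genes of ATP synthase (median -0.64), and for 7 of 9 NADH dehydrogenases and complex II subunits (median -0.47). These shares stand beside 18.5% of all genes called lower and 13.7% called higher, and the counts of every list that follows are to be read against the same shares. The single call upwards in these lists was COX5B (0.28 ± 0.10), the hypoxic form of a complex IV subunit. That call was lost without any 1 of the 4 58F arrays and without replicate 1, 3 or 4 of 112A, where the difference was 0.24 to 0.32, and under quantile scaling the difference was 0.47.

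Within the chain the differences varied between genes, for cytochrome c and complex IV from -1.41 (CYC1) to 0.28 (COX5B). COX8, a complex IV subunit, was at 0.63, 0.74, 0.90 and 0.78 in 58F and at 1.87, 1.40, 1.78 and 1.58 in 112A. No 58F array reached the lowest 112A array, which was replicate 2, and the difference was -0.90 ± 0.10 (adjusted p = 0.000119). ATP5, which encodes a subunit of ATP synthase, was at 1.35, 1.42, 1.60 and 1.54 in 58F and at 2.54, 2.07, 2.51 and 2.26 in 112A. Replicate 2 of 112A was again the lowest of its group and still above 58F (-0.87 ± 0.10, adjusted p = 0.000146). Other falls in complex IV were COX6 (-0.84 ± 0.10), COX5A (-0.80 ± 0.13), COX9 (-0.73 ± 0.08) and COX4 (-0.70 ± 0.08). In complex III QCR10 (-0.80 ± 0.10), the iron-sulfur protein RIP1 (-0.68 ± 0.08) and cytochrome c1, encoded by CYT1 (-0.65 ± 0.11), led. In ATP synthase ATP14 (-0.84 ± 0.11), the catalytic subunit gene ATP2 (-0.71 ± 0.06) and the inhibitor gene INH1 (-0.72 ± 0.11) fell. At the entry to the chain NDE1 (-0.87 ± 0.11), the external NADH dehydrogenase, GUT2 (-0.60 ± 0.13), the glycerol-3-phosphate dehydrogenase of mitochondria, and all 4 subunits of succinate dehydrogenase, SDH1, SDH2, SDH3 and SDH4, fell, the last group with differences of -0.32 to -0.51. Under quantile scaling SDH1, SDH2 and SDH4 measured -0.30, -0.28 and -0.16 and were still called.

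Factors that assemble the same complexes but are not part of them behaved differently in count. Of 33 assembly factors 2 were called higher and 2 lower, with a median of -0.04. The lower ones were CBP4 (-0.23 ± 0.06), for complex III, and COX11 (-0.22 ± 0.06), which delivers copper to complex IV. Without wild type replicate 1 the counts were 4 higher and 6 lower, without replicate 2 of 112A 1 higher and 4 lower, and without any other array of 112A, or replicate 1, 2 or 3 of 58F, 1 was higher. The mitochondrially encoded genes, read through the polyadenylated fraction and therefore only in part, had a median of 0.01 over 20 genes with 1 lower and 0 higher. Array by array the median deviation of the complex III genes from their own mean was -0.33, -0.31, -0.19 and -0.30 in 58F and 0.42, 0.06, 0.41 and 0.30 in 112A, so replicate 2 of 112A stood nearer to 58F than its companions. The same array was lowest of its group for complex IV (0.08) and ATP synthase (0.08).

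HAP4 (YKL109W), the activating subunit of the Hap complex that drives respiratory genes, fell with them. It read 2.11, 2.02, 2.18 and 2.01 in 58F, 2.62, 2.46, 2.67 and 2.54 in 112A and 2.96 ± 0.05 (SD, n = 4) in wild type. The 3 groups did not overlap, and the difference between the intrabody strains was -0.49 ± 0.06 (adjusted p = 0.000167). HAP3 (-0.40 ± 0.11, adjusted p = 0.02), another subunit of the complex, was also called lower, though its groups overlapped. HAP5, a further subunit, showed 0.05 and the haem-dependent activator HAP1 0.11 ± 0.05, neither called. Of 13 genes for the Hap regulators and haem synthesis 4 were lower and 1 was higher, with HEM3 (-0.43 ± 0.11) and HEM1 (-0.30 ± 0.06) lower and HEM14 (0.25 ± 0.05) higher. HYP2 (-0.33 ± 0.06), the aerobic form of the translation factor eIF5A, was lower, while its hypoxic counterpart ANB1, which lies next to CYC1 and is transcribed away from it, was higher.

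Genes that feed respiration or serve growth on non-sugar carbon were lower as well. In the tricarboxylic acid cycle 8 of 14 genes were lower and 0 higher (median -0.29), led by FUM1 (-0.67 ± 0.14), fumarase, and by KGD1 (-0.59 ± 0.08) and KGD2 (-0.57 ± 0.10), of the oxoglutarate dehydrogenase. Of 17 genes of gluconeogenesis and the glyoxylate cycle, used for growth without sugar, 9 were lower (median -0.34). FBP1, fructose-1,6-bisphosphatase, was at 0.09, -0.15, 0.23 and 0.24 in 58F, at 1.37, 0.95, 1.59 and 1.02 in 112A and at 2.32 ± 0.21 (SD, n = 4) in wild type. The groups stood in 3 separate steps, and 58F was 2.19-fold below 112A (-1.13 ± 0.15, adjusted p = 0.000332). SFC1 (-0.97 ± 0.17), PCK1 (-0.96 ± 0.18), MLS1 (-0.95 ± 0.18) and ICL1 (-0.80 ± 0.17) fell likewise, while CIT2 (0.27 ± 0.06), the peroxisomal citrate synthase, rose. Among 25 mitochondrial carriers 10 were lower and 1 higher, led by PET9, the main ADP/ATP carrier. It read 2.69, 2.75, 2.77 and 2.79 in 58F and 4.06, 3.46, 3.87 and 3.79 in 112A. All 58F arrays were lower than all 112A arrays, by 2.06-fold (-1.04 ± 0.11, adjusted p = 0.000119).

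Hexose transporters divided. Of 18 tested, 5 (27.8%) were higher in 58F and 3 (16.7%) lower. HXT2 and HXT4 rose as above, HXT1 (0.58 ± 0.12) and HXT16 (0.58 ± 0.12) with them. HXT3, a low-affinity carrier, was at 2.13, 2.21, 2.19 and 2.19 in 58F and at 1.44, 1.68, 0.99 and 1.67 in 112A. The 58F arrays were near equal and above a scattered 112A group (0.73 ± 0.17, adjusted p = 0.00839). HXT14, HXT5 (-0.54 ± 0.14), a carrier of non-growing cells, and HXT10 (-0.29 ± 0.06) were lower. Without wild type replicate 1, or with the 8 arrays alone, 6 were lower, and in the authors' deposited table, which holds fewer genes, 1 was. Hexose transporter genes are near-identical in part, so the values of single members are uncertain.

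Among 18 genes of glucose sensing and repression 5 were higher and 2 lower. MIG3, a relative of the repressor Mig1, was at -0.88, -0.73, -0.83 and -0.58 in 58F and at -1.64, -1.24, -1.59 and -1.21 in 112A, with wild type at -2.18 ± 0.25 (SD, n = 4). The groups formed 3 levels with 58F on top, as for STD1, and the difference was 0.66 ± 0.13 (adjusted p = 0.0031). MIG1 (0.27 ± 0.07) and the low-affinity glucose sensor gene RGT2 (0.18 ± 0.04) rose, the latter without a call under normexp background correction (0.09), and the high-affinity sensor gene SNF3 (-0.15 ± 0.04) and MTH1 (-0.18 ± 0.04), the paralog of STD1, fell. SNF3 lost its call without replicate 2 or 3 of 58F, leaving 1 lower in the list, and without wild type replicate 1 5 were lower.

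Glycolytic genes leaned upwards with 5 of 18 higher, 1 lower and a median of 0.27. GPM2 (0.69 ± 0.10) and TPI1 (0.46 ± 0.11) rose and GPM3 (-0.53 ± 0.09) fell. GPM2 and GPM3, both minor paralogs of phosphoglycerate mutase, were the highest and the lowest of the list. The count of higher members depended on the settings and on single arrays: it was 12 under quantile scaling, 13 under cyclic loess scaling, 11 without replicate 2 of 112A and 11 without replicate 1 of wild type. The pentose phosphate pathway had 5 of 11 lower, with RKI1, GND2 (-0.43 ± 0.09), TKL2 (-0.41 ± 0.11), ZWF1 (-0.32 ± 0.08), which makes the first NADPH, and SOL3 (-0.21 ± 0.06). Of 11 glycerol genes 4 were higher, among them DAK2 (0.50 ± 0.10), a dihydroxyacetone kinase, FPS1 (0.38 ± 0.07), the glycerol channel, and GPD1 (0.28 ± 0.07). In fermentation and acetate metabolism PDC6 (-0.89 ± 0.09), a minor pyruvate decarboxylase, and SFA1 (-0.60 ± 0.11) fell while ALD6 (0.46 ± 0.10), the cytosolic aldehyde dehydrogenase, rose, in a list of 17 with 2 higher and 6 lower.

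**Figure D3:**
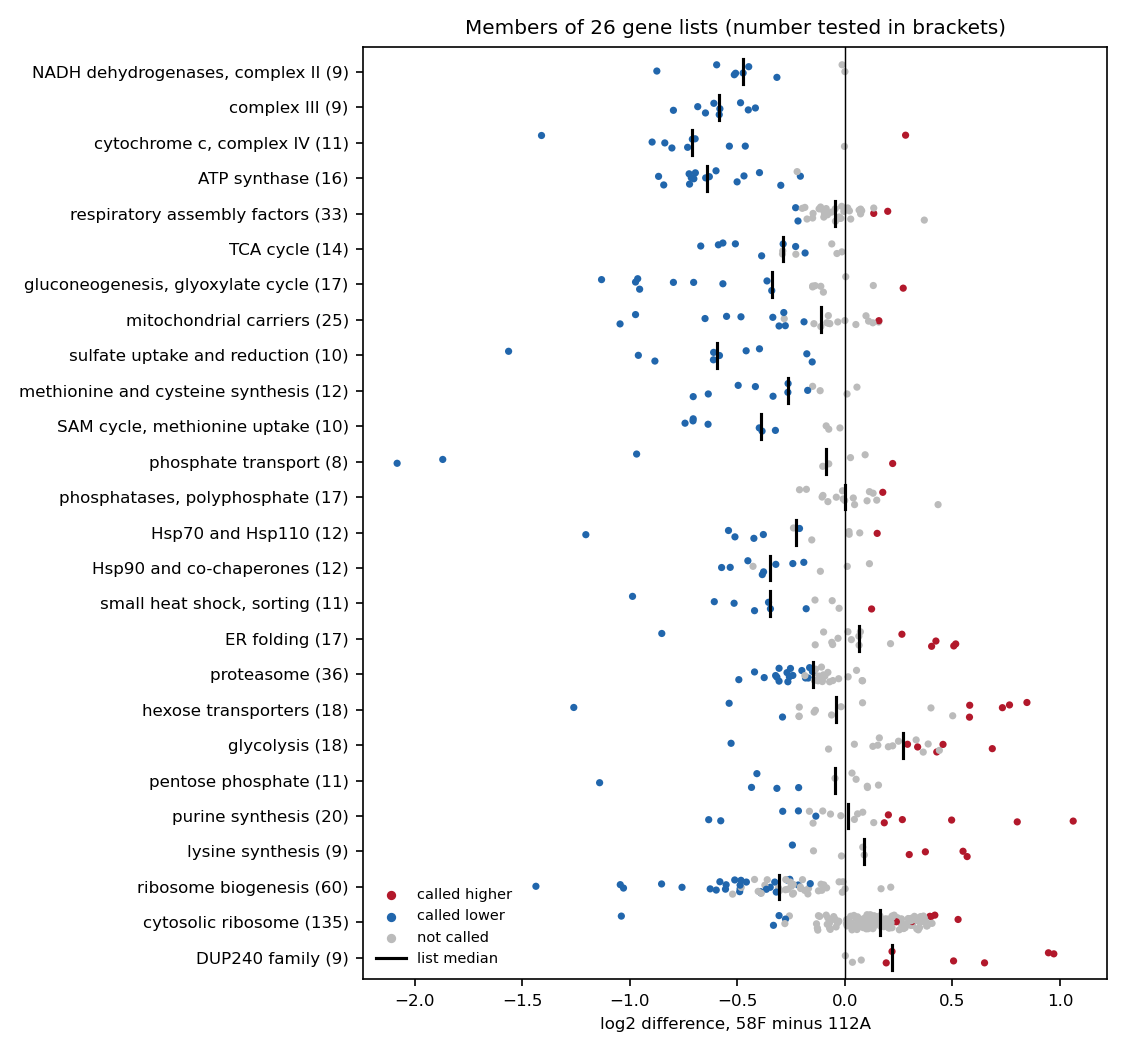
Difference between 58F and 112A (horizontal, log2) of every tested member of 26 gene lists, with the number tested in brackets; red points were called higher, blue lower and grey not called, and the black bar is the list median. The structural respiratory lists lie wholly or nearly wholly to the left, with medians of -0.47 to -0.71, while the assembly factors centre on -0.04.

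Phosphate genes divided by role. In yeast the high-affinity carriers are induced by the Pho4 activator when phosphate is short, together with secreted phosphatases. Of 8 transport genes 3 (37.5%) were lower and 1 (12.5%) was higher: PHO89, PHO84 and SPL2 (-0.97 ± 0.14), which restrains low-affinity uptake, fell and PHO91 (0.22 ± 0.05), the vacuolar phosphate exporter, rose. The low-affinity carriers PHO87 (0.09 ± 0.09) and PHO90 (-0.07 ± 0.05) were not called. Among 17 phosphatase and polyphosphate genes 0 were lower and 1 was higher, GDE1 (0.18 ± 0.05), a glycerophosphodiesterase, and the list median was -0.00. Up to 4 of the list were higher and up to 2 lower without 1 array, both extremes without wild type replicate 1, and 3 were higher without replicate 2 of 112A. PHO5, the repressible acid phosphatase and a textbook target of Pho4, measured 0.43 ± 0.16 (adjusted p = 0.0609), not lower. Under quantile and cyclic loess scaling and without replicate 2 of 112A (0.57) PHO5 was called higher. Of 6 regulators PHO80 (0.35 ± 0.05), the cyclin that holds Pho4 inactive, and PHO4 (0.33 ± 0.11) rose and SND3 (-0.30 ± 0.07), older name PHO88, fell. The call of PHO4 was lost without any 1 of replicates 1, 2 and 3 of either group, with the replicate block (0.33, adjusted p = 0.0616), and under normexp background correction, where its difference was 0.17.

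Sulfur assimilation fell at nearly every step. All 10 genes that bring sulfate into the cell and reduce it to sulfide were lower (median -0.60). After SUL1 and SUL2 (-0.58 ± 0.05), the second permease, come MET3 (-0.40 ± 0.09), ATP sulfurylase, and MET14, which phosphorylates adenylylsulfate. MET14 was at -0.91, -0.89, -0.66 and -0.76 in 58F and at 0.29, 0.26, 0.17 and -0.10 in 112A. Both groups were tight and apart, and the difference was -0.96 ± 0.12 (adjusted p = 0.000213). MET16, the next enzyme, read -1.86, -1.85, -1.75 and -1.90 in 58F, -0.77, -0.97, -0.96 and -1.13 in 112A and -0.74 ± 0.11 (SD, n = 4) in wild type. Wild type lay with 112A, and 58F was lower (-0.88 ± 0.08, adjusted p = 5.5e-05). MET22 (-0.61 ± 0.06), which clears a by-product of that step, and the sulfite reductase subunit genes MET5 (-0.61 ± 0.05) and MET10 (-0.18 ± 0.04) fell as well.

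Further along, 8 of 12 genes of methionine and cysteine synthesis were lower and 0 higher. MET2, homoserine acetyltransferase, was at 0.82, 0.77, 0.90 and 0.74 in 58F and at 1.54, 1.54, 1.51 and 1.47 in 112A. With hardly any spread in either group the difference of -0.70 ± 0.06 had an adjusted p of 5.16e-05. HOM3 (-0.64 ± 0.10), aspartate kinase, MET17 (-0.50 ± 0.06), which fixes sulfide, and MET6 (-0.42 ± 0.08), methionine synthase, belonged to the falls. In the S-adenosylmethionine cycle and methionine uptake 7 of 10 were lower, including SAM1 (-0.74 ± 0.16), SAM2 (-0.39 ± 0.09) and the permease genes MUP3 (-0.71 ± 0.06) and MMP1 (-0.70 ± 0.09). MET32, a DNA-binding regulator of the pathway, read -0.63, -0.72, -0.59 and -0.69 in 58F and 0.13, 0.00, -0.02 and -0.05 in 112A. The groups were apart by several times their ranges (-0.67 ± 0.05, adjusted p = 5.16e-05), and wild type, at -0.15 ± 0.07 (SD, n = 4), lay nearer to 112A. MET30 (-0.34 ± 0.10), the ubiquitin ligase subunit that restrains the pathway, was the other regulator called, though not without replicate 2 of 58F (-0.29) or replicate 1 of 112A (-0.31). Set against wild type, the median of the sulfate list was -0.01 in 112A and -0.65 in 58F.

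Copper and iron genes were called mostly downwards. Of 20 genes for copper handling and surface reductases 6 (30.0%) were lower and 0 higher, with CTR1, FRE7 and FRE1 (-0.66 ± 0.14), the main surface reductase, in the lead, as well as CTR3 (-0.76 ± 0.18), a second copper transporter. Replicate 1 of 58F gave no value for CTR3, so its 58F mean rests on 3 arrays. In iron uptake 5 of 20 (25.0%) were lower, beside 18.5% of all genes, including FIT2 (-0.57 ± 0.14), a cell wall mannoprotein that retains siderophores, and CTH1 (-0.52 ± 0.05), which degrades mRNAs of iron-using proteins, and SMF3 (0.30 ± 0.07), a vacuolar iron exporter, was higher. Without replicate 1 of 112A 3 were lower.

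Chaperone calls were mostly downwards in the cytosolic lists, which also hold mitochondrial members, and mostly upwards in the endoplasmic reticulum. Of 12 Hsp90 and co-chaperone genes 8 (66.7%) were lower and 0 higher (median -0.35). HSP82, the inducible Hsp90, was at 0.51, 0.58, 0.60 and 0.51 in 58F, at 1.14, 0.98, 1.14 and 1.23 in 112A and at 1.57 ± 0.05 (SD, n = 4) in wild type. The 3 groups were separate, and 58F was lower than 112A (-0.57 ± 0.05, adjusted p = 9.15e-05). HSC82 (-0.38 ± 0.06), the constitutive paralog, and the co-chaperones STI1 (-0.53 ± 0.06), HCH1 (-0.45 ± 0.08), CPR6 (-0.38 ± 0.06) and AHA1 (-0.32 ± 0.05) moved the same way.

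Of 12 Hsp70 and Hsp110 genes 6 were lower and 1 was higher, a call lost under normexp background correction and under quantile and cyclic loess scaling. SSA1, a main cytosolic Hsp70, measured 0.69, 0.88, 0.83 and 0.82 in 58F and 1.38, 1.33, 1.31 and 1.36 in 112A. All 58F arrays were beneath 112A (-0.54 ± 0.05, adjusted p = 9.15e-05), and SSA2 (-0.51 ± 0.05), SSA4 (-0.38 ± 0.06) and SSC1 (-0.42 ± 0.05), of mitochondria, fell with it. Only 2 of 13 J proteins and exchange factors were called, the broad cytosolic partners YDJ1 (-0.60 ± 0.09) and SIS1. SIS1 read 1.37, 1.41, 1.46 and 1.33 in 58F, 1.93, 1.92, 2.01 and 1.89 in 112A and 2.44 ± 0.03 (SD, n = 4) in wild type. Spread was small in each group and no array overlapped (-0.54 ± 0.04, adjusted p = 5.16e-05).

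Small heat shock and sorting factors had 7 of 11 lower and 1 higher, a call lost under normexp background correction and with the 8 arrays alone. BTN2, which gathers misfolded protein, was at -3.12, -2.78, -3.15 and -3.11 in 58F, at -2.14, -1.97, -2.14 and -1.97 in 112A and at -0.84 ± 0.16 (SD, n = 4) in wild type. The order 58F, 112A, wild type held without overlap (-0.99 ± 0.10, adjusted p = 9.49e-05). HSP26, a bright small heat shock gene, fell (-0.61 ± 0.09), as did HSP104 (-0.35 ± 0.05), the disaggregase, at -0.16 under quantile scaling, and HSF1 (-0.18 ± 0.05), their common activator, fell slightly. In the proteasome 17 of 36 genes (47.2%) were lower and 0 higher (median -0.15), among them RPT3 (-0.42 ± 0.05) and the activator gene BLM10 (-0.49 ± 0.07), as was RPN4 (-0.38 ± 0.07), the transcription factor of proteasome genes. In the endoplasmic reticulum 5 of 17 folding genes were higher, EUG1 (0.52 ± 0.05) and MPD1 (0.42 ± 0.07), both disulfide isomerases, SSS1 (0.51 ± 0.10), of the translocation channel, and SIL1 (0.40 ± 0.07) and LHS1 (0.27 ± 0.07), exchange factors of the Hsp70 there. SIL1 measured 0.26 with normexp background correction, and LHS1 lost its call there (0.18) and without replicate 2 of 58F (0.24). ERO1, the oxidase that feeds disulfide formation, was the exception at -1.35, -1.28, -1.04 and -1.02 in 58F and -0.34, -0.35, -0.03 and -0.57 in 112A. Every 58F array was lower, and the difference was -0.85 ± 0.14 (adjusted p = 0.00125).

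**Figure D4:**
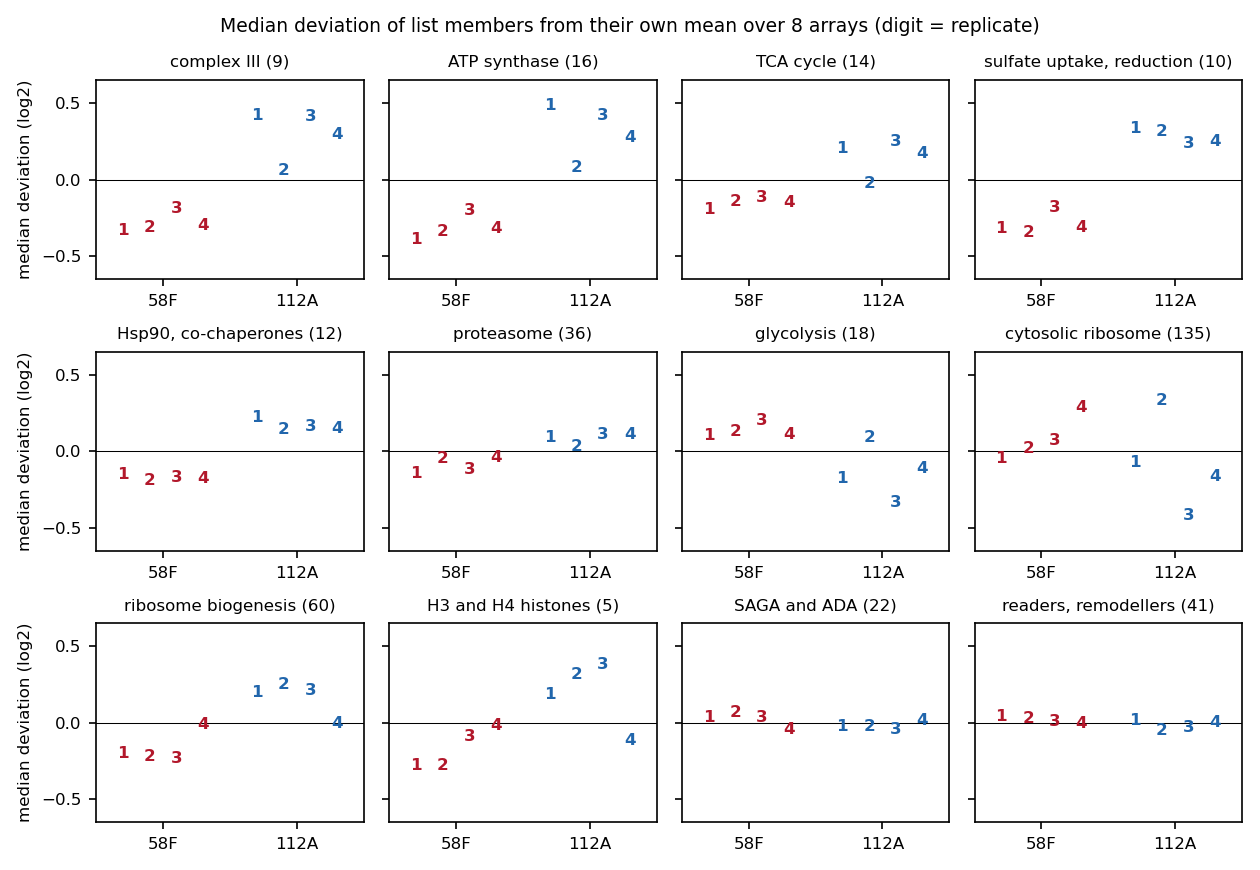
Median deviation (log2) of the tested members of 12 gene lists from each gene's own mean over the 8 arrays, one digit per array giving the replicate, 58F in red and 112A in blue. For complex III, ATP synthase, sulfate uptake and Hsp90 all 58F arrays lie below all 112A arrays, whereas for the cytosolic ribosome and the H3 and H4 genes arrays of both groups interleave.

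The genes for histone H3, the protein that 58F binds, and for H4 were lower in the mean, with 1 call. Of the 5 genes for H3, H4 and the centromeric H3 1 was called lower, HHT1 (YBR010W), and the median of the 5 was -0.37. HHT1 was at 2.81, 2.85, 3.04 and 3.09 in 58F, at 3.25, 3.45, 3.51 and 3.06 in 112A and at 3.76 ± 0.11 (SD, n = 4) in wild type. Replicate 4 of 112A fell inside the 58F range, and the difference of -0.37 ± 0.10 (adjusted p = 0.0172) was not called under quantile scaling, where it was -0.17, under cyclic loess scaling, or without replicate 1 or 2 of 58F (-0.32 and -0.34). HHT2, the second H3 gene, read 3.16, 3.17, 3.26 and 3.26 in 58F and 3.46, 3.39, 3.37 and 3.16 in 112A. Its groups overlapped at the same replicate 4, and the difference was -0.13 ± 0.07 (adjusted p = 0.158), of uncertain sign because it turned under quantile scaling. Without replicate 4 of 112A 4 of the 5 genes were called lower, HHT2 among them at -0.20. The H4 genes HHF1 (-0.51 ± 0.21) and HHF2 (-0.50 ± 0.25) were not called with all arrays.

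Of 6 genes for the other histones 4 (66.7%) were lower. HTB1, one of the H2B genes, was at 1.70, 1.69, 1.65 and 1.83 in 58F and at 2.30, 2.33, 2.36 and 2.03 in 112A. Replicate 4 of 112A was once more the lowest of its group but above 58F (-0.54 ± 0.10, adjusted p = 0.00223). HTA2 (-0.34 ± 0.09), for H2A, was lower too. Copies of a histone gene are near-identical in sequence, so signal may be shared between them.

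GCN5 (YGR252W), the acetyltransferase for the mark that 58F binds, was slightly higher. It was at -1.59, -1.59, -1.59 and -1.67 in 58F, at -1.85, -1.83, -1.81 and -1.79 in 112A and at -2.10 ± 0.03 (SD, n = 4) in wild type. The 3 groups did not overlap, and the rise over 112A was 0.21 ± 0.04, or 1.16-fold (adjusted p = 0.00165). Of 22 SAGA and ADA genes 4 were higher and 3 lower (median 0.05). These shares, 18.2% and 13.6%, are near the 13.7% and 18.5% of all genes. Among the members called were HFI1 (-0.47 ± 0.11) and ADA2 (-0.26 ± 0.06), both needed for a working complex and both lower. The largest call upwards was CHD1 (0.27 ± 0.08). Without replicate 1 of 58F 1 was higher, and without replicate 2 or 3 of 58F or replicate 1 of 112A 2 were. Of 30 genes of other acetyltransferase complexes 10 (33.3%) were lower and 4 (13.3%) higher (median -0.05). VPS75 (-0.40 ± 0.06), a partner of the H3 acetyltransferase Rtt109, YNG1 (-0.38 ± 0.08), of the NuA3 complex, ELP3 (-0.38 ± 0.10), of Elongator, and HPA2 (-0.32 ± 0.07) fell, and the NuA4 genes EAF6 (0.29 ± 0.07) and EAF1 (0.23 ± 0.06) rose.

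Deacetylase complexes had 8 of 33 (24.2%) higher and 6 (18.2%) lower (median 0.04), beside 13.7% and 18.5% of all genes. RPD3, the catalytic subunit of the main class I enzyme, was at -1.65, -1.54, -1.55 and -1.70 in 58F and at -1.90, -1.88, -1.74 and -1.82 in 112A. The lowest 58F array was just above the highest 112A array (0.23 ± 0.06, adjusted p = 0.0103). HOS3 (0.33 ± 0.05) and RFM1 (0.25 ± 0.05), which tethers the deacetylase Hst1, rose as well. UME6 (0.55 ± 0.11) rose most, but was above background on 3 of the 4 112A arrays. HST4 (-0.38 ± 0.13), the deepest fall of the list, was called lower with overlapping groups. Without replicate 1 of 58F 5 were higher and 1 lower, without replicate 2 of 58F or replicate 1 or 3 of 112A 2 were lower, without replicate 4 of 58F 3 were, and under quantile scaling 2 were. SIR2 (0.04 ± 0.06), the silencing deacetylase, was not called, and SIR1 (-0.35 ± 0.05), which helps to establish silencing, fell.

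Bromodomain readers and remodellers had 11 of 41 higher and 2 lower (median 0.05), against 13.7% higher and 18.5% lower over all genes. IOC4, a subunit of the ISW1b remodeller, measured 0.39, 0.40, 0.30 and 0.23 in 58F, -0.07, -0.03, -0.25 and -0.06 in 112A and 0.21 ± 0.06 (SD, n = 4) in wild type. The 112A arrays were below both other groups, and the difference was 0.43 ± 0.06 (adjusted p = 0.000456). The RSC subunits RSC9 (0.35 ± 0.04) and LDB7 (0.28 ± 0.06), the SWI/SNF subunits SNF11 (0.30 ± 0.07) and SNF6 (0.21 ± 0.06), FUN30 (0.31 ± 0.07) and YAF9 (0.30 ± 0.07) rose. BDF1 (-0.19 ± 0.05), a bromodomain protein that binds acetylated tails, fell. RSC did not move as a whole: its subunit RSC2 (-0.225 ± 0.068) was called lower, and its subunit SFH1 (-0.28) had the lowest difference of the list. Without replicate 1, 2 or 4 of 58F or replicate 1 of 112A 1 was lower, and without wild type replicate 1 or with the 8 arrays alone 4 were. Under normexp background correction 6 were lower. Among genes for H3 methylation 3 of 22 were higher and 3 lower, 13.6% each and near the shares of all genes. SET1 (-0.06 ± 0.06), the K4 methyltransferase, was not called, and LGE1 (0.33 ± 0.06) and RAD6 (-0.29 ± 0.06), which act together in the ubiquitylation of H2B ahead of it, moved in opposite directions.

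**Figure D5:**
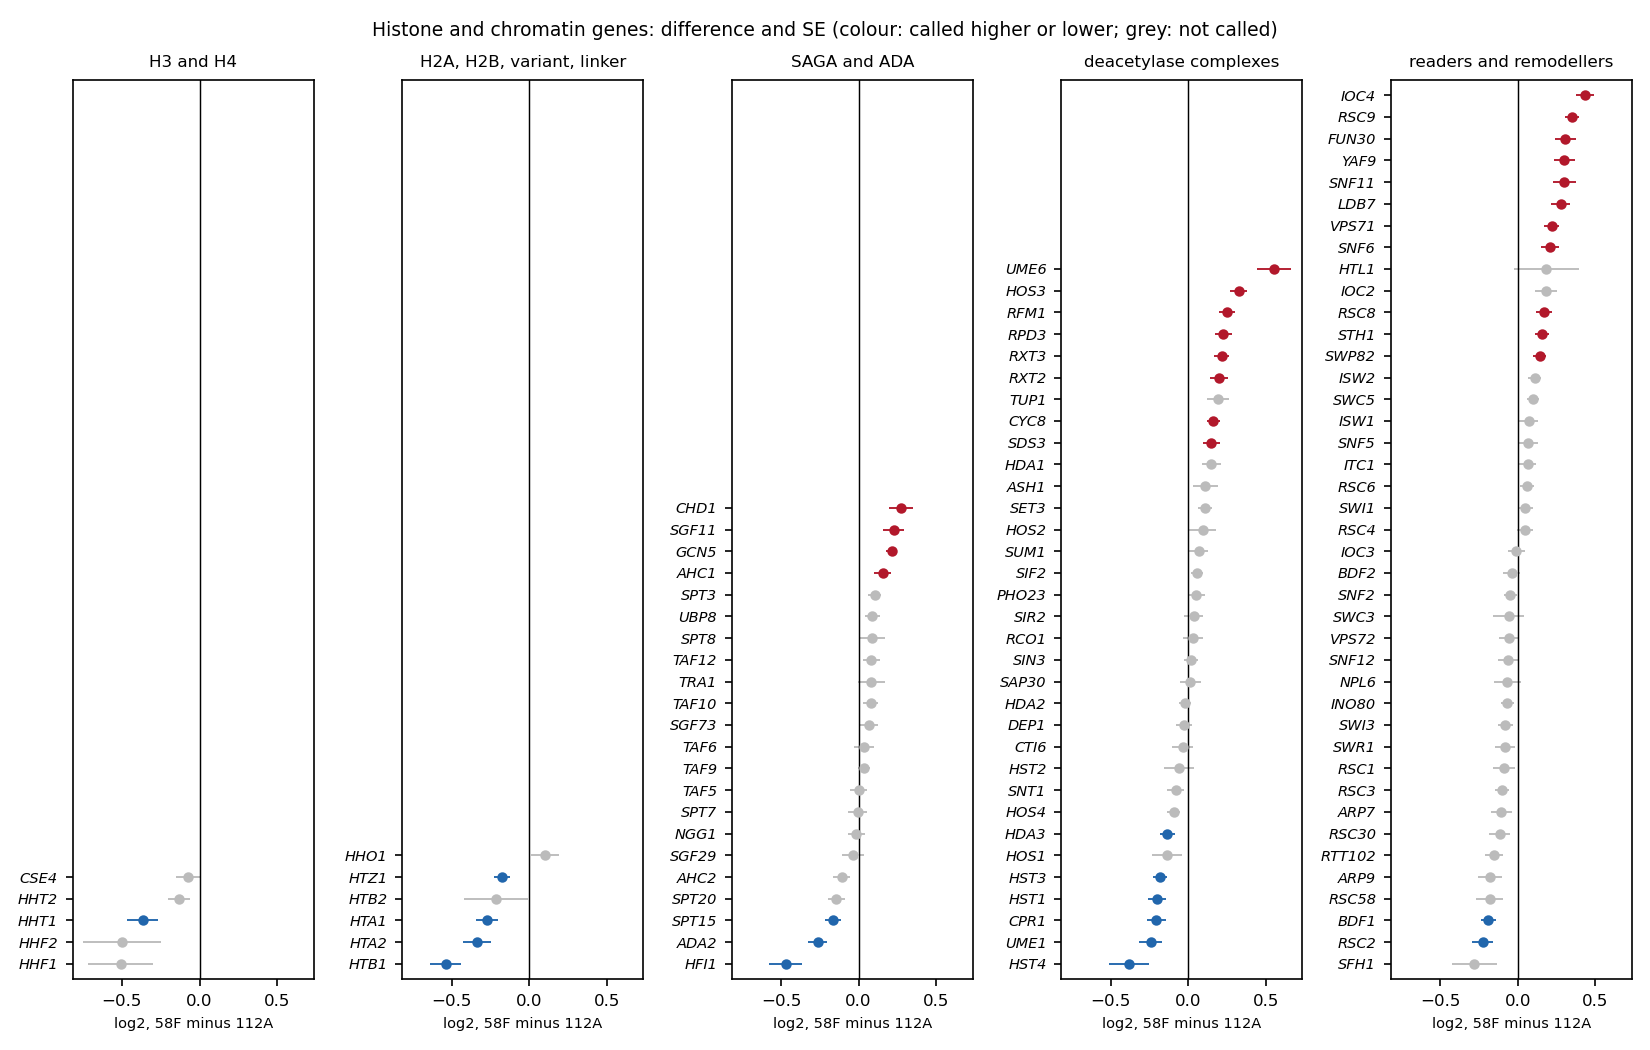
Difference between 58F and 112A (horizontal, log2) with its SE for every tested gene of 5 chromatin lists, ordered by the difference; red genes were called higher, blue lower and grey not called. The H3 and H4 genes all lie to the left with 1 called, while SAGA and ADA genes centre on 0.05 with 4 higher and 3 lower.

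Calls in purine synthesis lay in both directions. Of 20 genes 6 (30.0%) were higher and 5 (25.0%) lower (median 0.01). ADE13 was at 0.73, 0.88, 0.89 and 0.74 in 58F and at -0.30, 0.31, 0.07 and -0.06 in 112A. No array overlapped (0.80 ± 0.11, adjusted p = 0.000481). With ADE17 and ADE12 (0.50 ± 0.10), which makes adenylosuccinate, it stood against ADE4 (-0.58 ± 0.13), the entry enzyme, and IMD4 (-0.22 ± 0.06), on the branch to guanine nucleotides. BAS1 (-0.10 ± 0.09), their activator, was not called. Without replicate 1 or 2 of 58F 3 were higher, and without replicate 2 or 3 of 58F 3 were lower.

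Amino acid pathways differed in the direction of their calls. For lysine 4 of 9 genes were higher, among them LYS9 (0.57 ± 0.13), LYS12 (0.55 ± 0.12) and LYS21 (0.37 ± 0.05), homocitrate synthase. Branched-chain synthesis had 5 of 12 lower and 0 higher, led by ILV5 (-0.80 ± 0.10), acetohydroxyacid reductoisomerase, with LEU9 (-0.41 ± 0.07) and LEU4 (-0.34 ± 0.07). For arginine 5 of 14 were lower, with ARG8 (-0.76 ± 0.10) and ARG3 (-0.49 ± 0.09), and CAR2 (0.47 ± 0.07), of arginine breakdown, was higher. The serine and one-carbon genes SER33 (-0.58 ± 0.07), SER3 (-0.44 ± 0.07), GCV1 (-0.39 ± 0.06) and SHM1 (-0.28 ± 0.04) were among 6 of 14 lower, with 0 higher. Of 12 pyrimidine genes 6 were lower, including the uracil permease gene FUR4 (-0.72 ± 0.10), but without replicate 3 of 58F 2 were.

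Ribosome biogenesis and the ribosome itself gave different counts. Of 60 ribosome biogenesis genes 26 (43.3%) were lower and 0 higher (median -0.31), for example the nucleolar protein gene NSR1 (-1.03 ± 0.28) and the RNA helicase gene DBP2 (-1.04 ± 0.19). The count was 16 and 15 without replicates 1 and 2 of 58F and 17 without replicate 3 of 58F or replicate 1 of 112A. Replicate 4 of both groups stood near the middle, with median deviations of -0.01 in 58F and -0.00 in 112A, whereas the other arrays lay at -0.20 to -0.23 and 0.20 to 0.25. Of 135 cytosolic ribosomal protein genes 6 were higher and 4 lower, with a median of 0.16. The 112A arrays spread from -0.42 in replicate 3 to 0.33 in replicate 2 and enclosed all 58F arrays, and without replicate 2 of 112A 60 genes were called higher. Without any other array of either intrabody group, replicate 1 of 112A apart, 2 or 3 were higher, and without replicate 1 or 2 of either group 2 were lower. RPS9A, 1 copy of a paralogous pair, was the deepest fall of the list, at -4.88, -5.10, -5.08 and -4.92 in 58F, -4.04, -3.87, -3.79 and -4.13 in 112A and -3.49 ± 0.43 (SD, n = 4) in wild type. The 58F arrays lay below all others, 112A overlapped wild type, and the difference was -1.04 ± 0.17 (adjusted p = 0.00112).

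In lipid synthesis 12 of 27 phospholipid and fatty acid genes were lower and 3 higher. The falls included genes controlled by inositol and choline, namely INO1 (-0.53 ± 0.07), which makes inositol phosphate, HNM1 (-0.57 ± 0.08), the choline transporter, and OPI3 (-0.46 ± 0.06) and CHO2 (-0.45 ± 0.05), which methylate phosphatidylethanolamine. ELO1 (0.42 ± 0.07), a fatty acid elongase, and PIS1 (0.34 ± 0.08), phosphatidylinositol synthase, rose.

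Multigene families of chromosome ends and membranes showed the following counts. Of 9 DUP240 genes 6 (66.7%) were higher and 0 lower (median 0.22): KTD1, PRM9 (0.95 ± 0.18), DFP2 (0.65 ± 0.14), MST28 (0.51 ± 0.11), UIP3 (0.22 ± 0.07) and DFP4 (0.19 ± 0.04). KTD1 was at -1.64, -1.48, -1.57 and -1.84 in 58F and at -2.75, -2.07, -3.18 and -2.42 in 112A. The groups did not overlap (adjusted p = 0.00528). PRM9 was not above background on every array and measured 0.57 with normexp background correction, and MST28 measured 0.32 there. UIP3 lost its call without any 1 of replicates 1, 2 and 3 of 58F or replicates 1 and 3 of 112A (0.19 to 0.23). UIP3 (YAR027W), KTD1 (YAR028W) and DFP2 (YAR029W) are neighbours, and PRM9 (YAR031W) lies close by. At least these calls therefore come from 1 stretch of the right arm of chromosome I and not from places spread over the genome. Aryl-alcohol dehydrogenase genes and old yellow enzymes, which respond to thiol stress, had 6 of 10 lower, with AAD6 (-1.07 ± 0.13), AAD14 (-0.88 ± 0.12), AAD4 (-0.83 ± 0.12) and OYE3 (-0.81 ± 0.12). A list of vitamin B6 genes, which holds BUD16 beside the SNZ and SNO families, had 6 of 8 lower and 1 higher. BUD16 (-0.47 ± 0.10) and SNZ1 (-0.41 ± 0.08) were among the lower. Without any 1 array of 58F 0 were higher. AAD, SNZ and DUP240 genes are similar in sequence, and single members may share signal.

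Pheromone and mating genes had 6 of 23 (26.1%) higher and 6 (26.1%) lower. FAR1, which arrests the cell cycle in response to pheromone, was at -5.20, -5.22, -5.05 and -5.12 in 58F, at -4.47, -4.44, -4.42 and -4.47 in 112A and at -4.05 ± 0.09 (SD, n = 4) in wild type. The 3 groups were tight and separate (-0.70 ± 0.05, adjusted p = 5.16e-05). FUS2 (-0.53 ± 0.07) and FUS1 (-0.49 ± 0.11), of cell fusion, fell, while the kinase gene FUS3 (0.28 ± 0.04) and the G protein gene GPA1 (0.25 ± 0.05) rose.

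Medians of the 32 chromosome arms ran from -0.11 (XII left) to 0.05 (III right), and 28 were below 0. The median of all genes was itself -0.02, and it was -0.04 under normexp background correction and 0.01 under quantile scaling. Counts of arms below 0 were not repeated under those settings. Genes at the ends of the arms leaned lower, as a description with no test. The median of the 10 outermost tested genes was below 0 on 29 arms and below that of the remaining genes on 26, and the lowest was -0.36, on XI right. Of these 320 genes 92 (28.7%) were lower and 31 (9.69%) higher, against 984 and 766 of the other 5473 genes with an arm, and the medians were -0.09 and -0.02. The end genes were also dimmer, with signal on all 8 arrays for 85.3% against 93.4%, and the part of signal level in the difference was not tested. Of 48 tested neighbours of the 24 leading genes 16 were called, 9 in the direction of the leading gene and 7 against it, which is close to the 32.2% of all genes. Lists together covered 1646 tested genes, of which 36.7% were called, while 30.4% of the 4181 genes outside every list were.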

How the data were processed

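RNA of 12 yeast samples in 3 labelled groups was measured, 1 array each, and all 8 arrays of the comparison were used. The deposited array files hold Cy3 intensity values made by the authors with Agilent Feature Extraction 10.7.3.1: the processed signal is background-subtracted and detrended within the array and not scaled between arrays, per the file headers. A deposited series table with log2 values of 5297 probes, which track the processed signal at an offset of 12.5 per array, served as an alternative. The files name build sacCer2. No coordinates are given, and 5749 of 6224 genes were matched to symbols of assembly R64.

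Control spots and outlier spots were dropped, log2 was taken of the processed signal, the 2 spots of a probe were averaged and each array's 75th percentile was subtracted. Genes with more than 1 probe took the brightest probe; of 29 such genes above background 9 had probes of different sign and 0 of these were called. Genes well above background on at least 4 of 12 arrays were tested (5827). With limma 3.58.1, run in R 4.3.3, lmFit and eBayes estimated group means over all 12 arrays in two-sided tests, and p was adjusted by Benjamini-Hochberg over all genes, with calls at an adjusted p under 0.05; 2527 genes had an unadjusted p under 0.05. Differences are log2, 58F minus 112A, with the SE of the fit, and n = 4 arrays per group, except for 20 genes that lack a value on some array. The fit was tested on simulated data. Precision is limited by the number of arrays.

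Members and gene lists (83) were chosen with earlier results of these data known, and a list is described by counts to be read against the shares of all genes called higher and lower. The rule for naming covered the 12 leading rises and falls with signal on all 8 arrays and no overlap. It also covered up to 3 called members per list with the largest differences, a set of chromatin and marker genes, and neighbours of the leading genes. The text gives part of these, so members named are not always the largest calls of their list. Other list members were named after their values were seen. Alternatives were normexp background correction (offset 50, on median signals), quantile and cyclic loess scaling, the percentile over single spots, other filters, the 8 arrays alone, the authors' table, a replicate block, and leaving out single arrays.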

Additional observations from a re-analysis of the deposited data

Results flagged for a closer look

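Dixon's test covered 235 of the genes named above. In 18 of 491 groups of 4 arrays 1 stood apart from the other 3 by a gap past the critical value for 4 samples. Chance gives about 1 such group in 20, so the number is no more than that share. 112A replicate 2 lay apart for CBP4 (0.50, against 0.60 to 0.61 in the others), FPS1 (0.42, against 0.15 to 0.18 in the others), LEU4 (2.56, against 2.74 in each of the others), MLS1 (-0.39, against 0.45 to 0.57 in the others) and RPT3 (0.87, against 0.96 to 0.98 in the others). 112A replicate 3 lay apart for FUR4 (-2.43, against -2.66 to -2.64 in the others), HXT10 (-2.88, against -3.02 to -3.00 in the others), MET30 (2.45, against 2.66 to 2.70 in the others) and RAD6 (-0.73, against -0.69 to -0.68 in the others). 112A replicate 4 lay apart for GDE1 (-0.19, against -0.14 in each of the others) and HXT14 (-4.62, against -3.83 to -3.74 in the others). 58F replicate 2 lay apart for BTN2 (-2.78, against -3.15 to -3.11 in the others) and GUT2 (2.08, against 2.23 to 2.24 in the others). 58F replicate 3 lay apart for HFI1 (-4.55, against -4.80 to -4.76 in the others). 58F replicate 4 lay apart for CYT1 (1.60, against 1.75 to 1.78 in the others) and GCN5 (-1.67, against -1.59 in each of the others). Wild type replicate 1 lay apart for PHO89 (0.90, against 0.09 to 0.18 in the others) and SSA3 (2.10, against 1.69 to 1.74 in the others).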

How the results depend on the processing

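The number of called genes was 1405 to 2260 across 18 alternatives, all within 1.5 times of 1877. Every call shared with the reported fit kept its sign in each of them, and 73.9% to 99.9% of calls were shared. Of 235 of the genes named, 224 were called and 202 of these kept the call in all alternatives. A further 13 kept it wherever tested but lacked a test in 1 or more. The 32 genes past 2-fold were 15 under normexp background correction (14 lower, 1 higher) and 19 in the authors' table (17 lower, 2 higher). The 4 higher among them were 8 under quantile scaling, 7 under cyclic loess scaling and 2 with signal required on all 8 arrays, and 3 to 7 when 1 array was left out, 7 without replicate 2 of 112A. The cause was not tested, except that the authors' table and the stricter filter hold fewer genes. HHT2 turned to 0.028 under quantile scaling. With a replicate block 1714 genes were called. The replicate numbers were not taken to pair the samples: same-numbered 58F and 112A arrays correlated at 0.166, 0.133, 0.068 and -0.174 in their deviations, and not every array correlated best with its own number. The percentile over single spots was chosen after seeing the data and gave 1871 calls. Genes dim in 112A, such as ANB1, have the least certain sizes.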

Other observations

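Several gene groups outside the comparisons above also held calls between 58F and 112A. Genes of thiol and oxidative defence had 11 of 25 lower and 3 higher, with the peroxiredoxin genes TSA2 (-0.52 ± 0.07), TSA1 (-0.42 ± 0.06) and PRX1 (-0.32 ± 0.05, at -0.13 under quantile scaling) and the mitochondrial superoxide dismutase gene SOD2 (-0.47 ± 0.08) lower. Without replicate 1 of 58F 6 were lower, and without replicate 1 of 112A 7 were, while the higher count was 1 without any 1 of replicates 1, 2 and 3 of 58F or replicates 1 and 2 of 112A. Mitochondrial import had 8 of 36 lower, with the matrix chaperonin genes HSP10 (-0.51 ± 0.08) and HSP60 (-0.33 ± 0.05), and 3 higher. Mitochondrial ribosomal protein genes, unlike the structural respiratory genes, had 15 of 71 lower and 3 higher with a median of -0.09, a share close to the 18.5% of all genes. Their lower count was 6, 8, 9 and 23 without replicate 1 of 58F, replicate 2 of 58F, replicate 1 of 112A and replicate 1 of wild type, and the higher count was 1 with the replicate block and without replicate 4 of 58F or replicate 1 or 2 of 112A.

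Cell wall genes had 9 of 31 higher and 4 lower, beside 13.7% and 18.5% of all genes, with PST1 (0.41 ± 0.08), a wall protein induced by wall damage, CHS1 (0.41 ± 0.08), a chitin synthase, and RLM1 (0.33 ± 0.06), the transcription factor of the wall integrity pathway, higher. Without replicate 3 of 58F or replicate 1 of 112A 2 were lower. Fatty acid oxidation had 3 of 20 higher, FAA4 (0.55 ± 0.07), an acyl-CoA synthetase, PXA1 (0.39 ± 0.08), a peroxisomal importer subunit, and TES1 (0.30 ± 0.07), a thioesterase, and 0 lower. Without replicate 3 of 112A 5 were higher, and without replicate 2 of 112A 2 were lower. Meiosis genes had 8 of 30 (26.7%) lower and 1 higher, with SSP1 (-0.62 ± 0.12), of the forming spore membrane, and NDT80 (-0.39 ± 0.08), the middle meiotic transcription factor, lower. The 5 lower thiamine genes of 17 included THI11 (-0.62 ± 0.08), THI13 (-0.57 ± 0.07), THI5 (-0.56 ± 0.07) and THI12 (-0.56 ± 0.07), which are near-identical copies and may read as 1 signal.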
